A study of Oryza sativa with 36 samples.

Results

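The 9 genes described here are the dehydrin genes RAB21, RAB16B, RAB16C, RAB16D and rab25 of rice, the cold-responsive dehydrin LIP9, the Em protein gene EMP1, the late embryogenesis abundant (LEA) gene LEA19 and the membrane protein gene PM19L. They were chosen by gene symbol or synonym in the array annotation, which gave 13 probe sets for the 9 genes, of 57194 rice probe sets and 17905 mapped genes in all. Each gene is represented by its brightest probe set over the 36 arrays, and the other 4 probe sets are given beside it. All 9 were measured in every group, since no filter on low signals was applied.

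LEA proteins, of which dehydrins are one family, are hydrophilic and largely unstructured proteins that build up as a seed dries out at the end of its maturation. They are known for protecting proteins and membranes against loss of water, and many of their genes are switched on by the hormone abscisic acid (ABA) through promoter elements that bZIP factors bind. Their messenger RNAs are stored in the dry cereal grain and are known to decline once the grain takes up water.

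Signals were measured in endosperm and embryo of rice grains (Oryza sativa, cultivar Nipponbare where a label names one) before imbibition and after 4, 8, 12, 16 and 24 h in sterile water, aerated, in the dark at 30 °C. Each of the 12 combinations of tissue and time has 3 Affymetrix arrays, numbered 1, 2 and 3 in endosperm and 1, 4 and 5 in embryo. The 0 h arrays are labelled as having had no treatment, and the growth notes of the embryo samples speak of the embryonic axis where the tissue label says embryo. Each group holds arrays with different labelled harvest days, though some arrays share a day in embryo at 0 h and in endosperm at 8 h. Whether a harvest day stands for a separate batch of grains is not stated in the labels. The variation among the 3 arrays of a group, on which p-values rest, may therefore be technical. Values are log2 signals, so a difference of 1 is a factor of 2, and a call means an adjusted p below 0.05 together with a difference of at least 1. In such whole-tissue samples, fewer cells of a type and less RNA per cell cannot be told apart.

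Replicate arrays correlated at 0.989 to 0.998 over all probe sets, and the highest signal of an array lay between 14.15 and 14.79. The 75th percentile of the signals was 4.12 to 4.53 in endosperm arrays and 5.21 to 5.77 in embryo arrays, so a level set across tissues depends on the scaling. The rice control transcripts had a 3′ minus 5′ difference of 3.34 at 24 h and 2.29 at 0 h in endosperm, and of 1.51 at 24 h and 1.67 at 0 h in embryo. Ribosomal RNA probe sets averaged 7.04 at 24 h and 11.13 at 0 h in endosperm, against 8.74 at 24 h and 13.71 at 0 h in embryo. The 9 starchy endosperm markers measured (storage protein and starch genes and the regulator gene NFYB1) had a median of 12.83 at 24 h and 13.06 at 0 h in endosperm, where 0 of 9 were called lower (4.57% of all probe sets), and of 3.83 at 24 h and 7.98 at 0 h in embryo, where 8 of 9 fell (10.1%). Group medians of the 7 embryo axis markers were 4.25 at 24 h and 3.0 at 0 h in endosperm and 7.66 at 24 h and 5.82 at 0 h in embryo. In endosperm 3 of 7 were called higher (7.33% of all probe sets) and 1 lower (4.57%), and in embryo 5 were higher (12.0%). The lowest axis marker stood at 2.23 in endosperm at 24 h and the lowest starchy marker at 2.34 in embryo at 24 h, both near the floor of these values. The 6 aleurone and scutellum markers had a median of 10.98 at 24 h and 8.00 at 0 h in endosperm, with 3 called higher (7.33% of all probe sets), and of 9.35 at 24 h and 7.58 at 0 h in embryo, with 1 higher (12.0%) and 2 lower (10.1%). The 2 pericarp markers had medians of 7.39 at 24 h and 5.10 at 0 h in endosperm and of 8.74 at 24 h and 7.48 at 0 h in embryo. Of these, 2 were called higher in endosperm (7.33% of all probe sets) and 1 in embryo (12.0%). The part that RNA quality, ribosomal signal or the mix of cells plays in the results on the 9 genes was not tested.

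**Figure D1:**
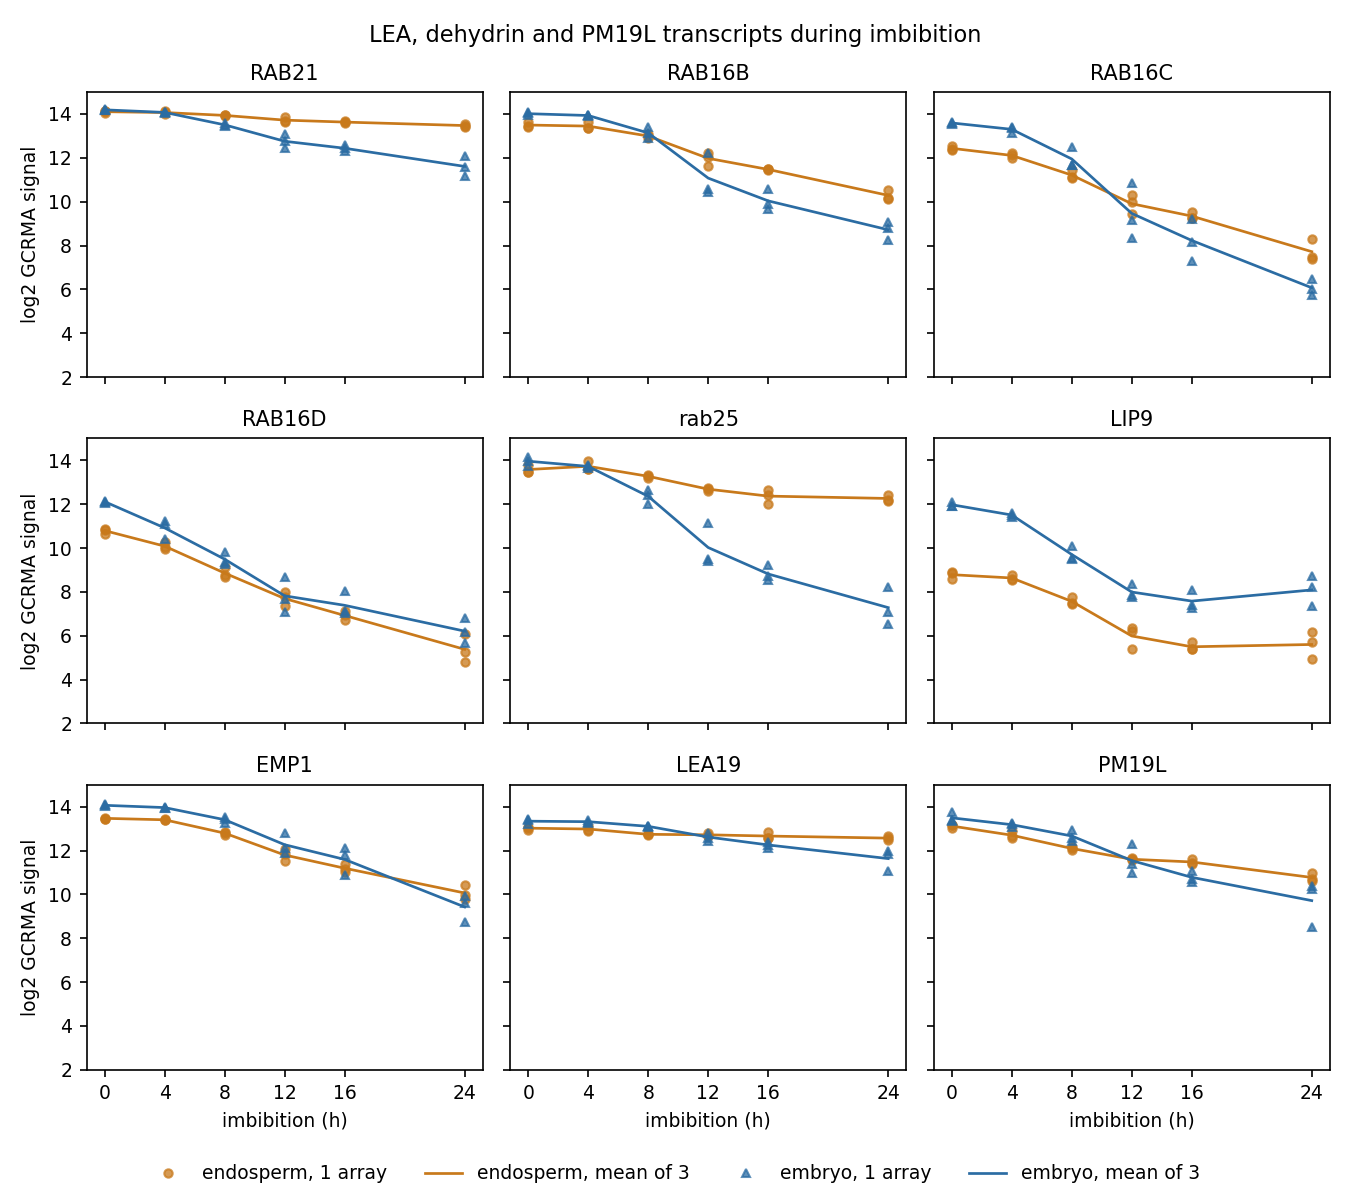
Log2 GCRMA signal (vertical axis) of the 9 genes against hours of imbibition, with a circle for each endosperm array, a triangle for each embryo array and lines through the means of 3 arrays. Embryo signals of rab25 and RAB16C ended at 7.28 and 6.07 on average, while the endosperm means of RAB21 stayed between 13.47 and 14.10.

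Signals of these genes declined during imbibition in both tissues, and for 7 of 9 the decline by 24 h was larger in embryo. In embryo all 9 were lower at 24 h than at 0 h, with a median difference of -4.64, against a median of -0.05 over all probe sets, of which 10.1% were called lower. In endosperm 7 of 9 were lower, with a median of -3.18, against -0.03 over all probe sets and 4.57% called lower. The 2 exceptions were RAB21 and LEA19, whose endosperm signals were -0.63 and -0.45 at 24 h relative to 0 h, below the size a call needs. The test over all 6 times (an F test with a range of group means of at least 1) called 7 of 9 in endosperm, where it called 17.2% of all probe sets, and 9 of 9 in embryo, where it called 29.0%.

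**Figure D2:**
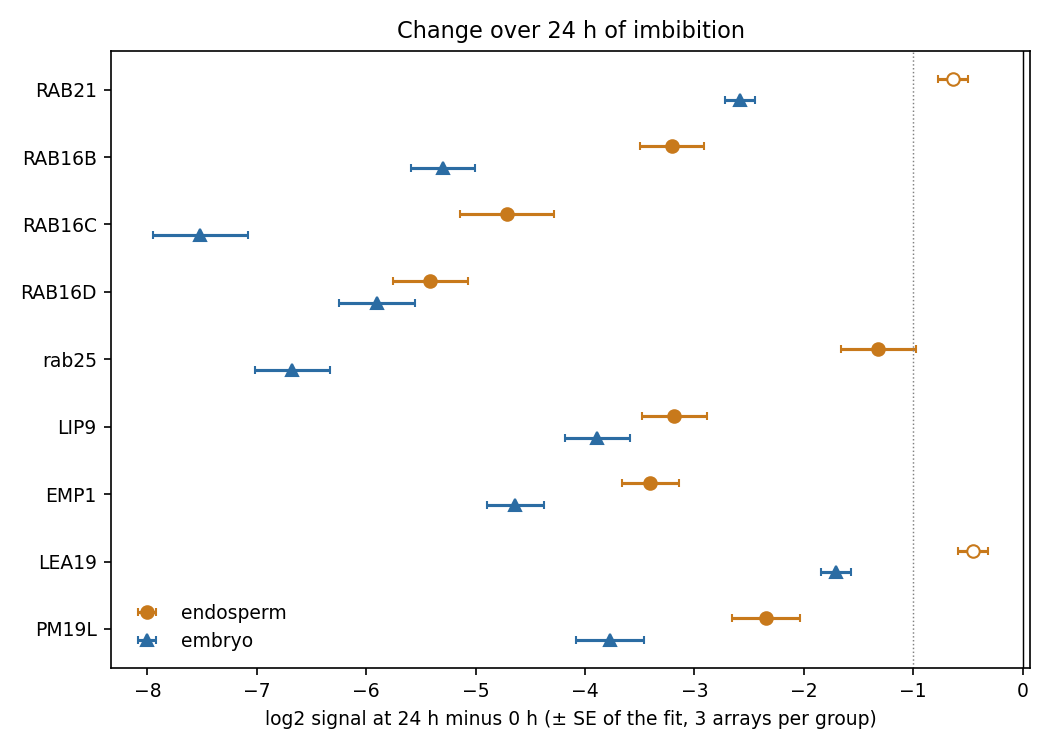
Log2 signal at 24 h minus 0 h (horizontal axis, ± SE of the fit) for each gene, endosperm as circles above embryo as triangles. Filled symbols passed the test and the dotted line marks a difference of -1; only the endosperm symbols of RAB21 and LEA19 are open, and every endosperm symbol lies to the right of its embryo partner.

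RAB21, also called RAB16A, is the ABA-responsive dehydrin after which this group was described in rice. In endosperm, RAB21 (Entrez gene 4350454) had 13.54, 13.46 and 13.41 at 24 h, against 14.15, 14.12 and 14.04 at 0 h, and the arrays of the 2 times did not overlap. Embryo arrays gave 11.57, 11.18 and 12.07 at 24 h, against 14.17, 14.19 and 14.20 at 0 h, so all 3 late arrays lay well below the early ones. Over 0, 4, 8, 12, 16 and 24 h the endosperm means were 14.10, 14.06, 13.93, 13.72, 13.63 and 13.47, with SDs of 0.017 to 0.114 among 3 arrays, while the embryo means were 14.19, 14.07, 13.50, 12.75, 12.44 and 11.61, with SDs of 0.015 to 0.445. The endosperm means stayed within 0.63 of their start. The 24 h difference was -0.63 ± 0.14 in endosperm (SE, adjusted p = 0.000619), which is short of the fold threshold, and -2.58 ± 0.14 in embryo (adjusted p = 8.82e-15). At 0 h RAB21 was 1 of the 7 brightest probe sets on every array and lay 0.174 to 0.515 below the array's highest signal, so its starting level sat near the top of the scale. In embryo at 0 h EMP1 (rank 7 to 11, 0.554 to 0.699 below the highest signal), RAB16B (rank 10 to 13, 0.568 to 0.785 below) and rab25 (rank 6 to 27, 0.562 to 0.911 below) also started near it. In endosperm at 0 h so did rab25 (rank 18 to 35, 0.581 to 0.854 below), RAB16B (rank 31 to 43, 0.75 to 0.92 below) and EMP1 (rank 34 to 39, 0.834 to 0.885 below). RAB21 in endosperm still lay 0.942 to 0.966 below the highest signal at 24 h. Whether this limits the measured changes and hours of these genes was not tested. A second probe set of RAB21 gave -0.71 ± 0.19 in endosperm and -2.34 ± 0.19 in embryo.

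RAB16B, RAB16C and RAB16D are dehydrin genes of the same cluster as RAB21. In the gene table of rice assembly ASM3414082v1 the 4 genes follow each other on chromosome 11 in the order RAB16D, RAB16C, RAB16B and RAB21, with 0, 2 and 0 other annotated genes between neighbours. The 2 genes between RAB16C and RAB16B are a long noncoding RNA and a pseudogene. Probe sets of such related genes may share some target sequence, and the probe sequences were not used here.

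RAB16B signals (Entrez gene 4350453) were 10.17, 10.55 and 10.14 at 24 h in endosperm, against 13.62, 13.44 and 13.42 at 0 h. The corresponding embryo arrays had 8.80, 8.27 and 9.09 at 24 h, against 14.07, 14.03 and 13.93 at 0 h. At 0 h all 3 embryo arrays were above all 3 endosperm arrays, and the embryo arrays ended lower, all 3 below all 3 endosperm arrays at 24 h. Means at the 6 times were 13.49, 13.45, 12.99, 11.98, 11.47 and 10.29 in endosperm (SD 0.0099 to 0.301) and 14.01, 13.93, 13.13, 11.07, 10.04 and 8.72 in embryo (SD 0.0303 to 0.976). RAB16B fell in both tissues, with a 24 h difference of -3.21 ± 0.29 in endosperm (adjusted p = 1.1e-09) and -5.29 ± 0.29 in embryo (adjusted p = 1.64e-14).

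RAB16C showed the deepest fall of the 9 in embryo. Its signal (Entrez gene 4350452) was 7.48, 8.29 and 7.40 in endosperm at 24 h, against 12.40, 12.35 and 12.55 at 0 h, and 6.0, 5.72 and 6.50 in embryo at 24 h, against 13.59, 13.54 and 13.64 at 0 h. No 24 h array of either tissue came within 4 log2 units of its 0 h arrays. Through the course the endosperm means were 12.43, 12.11, 11.21, 9.91, 9.34 and 7.72 (SD 0.102 to 0.49) and the embryo means 13.59, 13.30, 11.95, 9.46, 8.23 and 6.07 (SD 0.0516 to 1.28). At 12 h the embryo arrays of RAB16C were spread widely, at 8.36, 9.16 and 10.87, and they overlapped the endosperm arrays at 9.43, 10.29 and 9.99. The 24 h difference was -4.71 ± 0.43 in endosperm (adjusted p = 1.23e-09) and -7.52 ± 0.43 in embryo (adjusted p = 3.68e-14).

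RAB16D fell in both tissues. Endosperm arrays of RAB16D (Entrez gene 4350451) had 5.26, 6.07 and 4.81 at 24 h, against 10.88, 10.83 and 10.66 at 0 h, and the embryo arrays had 6.80, 5.65 and 6.18 at 24 h, against 12.07, 12.11 and 12.17 at 0 h. The tissues did not overlap at 0 h, where embryo was higher, and overlapped at 24 h. Its means in time order were 10.79, 10.08, 8.86, 7.70, 6.92 and 5.38 in endosperm (SD 0.117 to 0.639) and 12.11, 10.92, 9.49, 7.82, 7.39 and 6.21 in embryo (SD 0.0506 to 0.818). The 24 h differences were -5.41 ± 0.35 (adjusted p = 2.07e-12) in endosperm and -5.90 ± 0.35 (adjusted p = 5.21e-14) in embryo. RAB16D was also the earliest to move, called lower in embryo by 4 h at -1.20 ± 0.35 (adjusted p = 0.00733), a call that was lost without embryo replicate 1 of 4 h (-0.94, adjusted p = 0.058).

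rab25, a dehydrin gene outside that cluster, differed most between the tissues. Endosperm arrays of rab25 (Entrez gene 4326935) read 12.16, 12.43 and 12.19 at 24 h, against 13.79, 13.46 and 13.49 at 0 h. In embryo the readings were 7.06, 6.54 and 8.24 at 24 h, against 13.97, 13.75 and 14.15 at 0 h. The tissues overlapped at 0 and 4 h, and from 8 h on every endosperm array lay above every embryo array. Mean signals in endosperm were 13.58, 13.73, 13.27, 12.68, 12.37 and 12.26 (SD 0.0552 to 0.329), and in embryo 13.96, 13.72, 12.36, 10.02, 8.82 and 7.28 (SD 0.0754 to 0.982). rab25 fell in both tissues, with a 24 h difference of -1.32 ± 0.34 in endosperm (adjusted p = 0.00343) and -6.68 ± 0.34 in embryo (adjusted p = 3.96e-15). After quantile normalization over all arrays the endosperm value was -0.96, which ends that call.

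LIP9, a dehydrin gene known in rice for its induction by cold and drought and as a target of DREB1 factors, ran at a much lower signal in endosperm than in embryo. The brightest probe set of LIP9 (Entrez gene 4330265) had 5.73, 6.15 and 4.93 at 24 h in endosperm, against 8.85, 8.90 and 8.61 at 0 h, and 8.71, 7.34 and 8.21 at 24 h in embryo, against 11.90, 11.93 and 12.09 at 0 h. Embryo arrays were above endosperm arrays at all 6 times. The time course ran through 8.78, 8.63, 7.57, 5.99, 5.50 and 5.60 in endosperm (SD 0.127 to 0.623) and 11.97, 11.50, 9.70, 7.99, 7.58 and 8.09 in embryo (SD 0.0764 to 0.69), with little further movement of the means after 12 h. LIP9 fell in both tissues, with a 24 h difference of -3.18 ± 0.30 in endosperm (adjusted p = 1.77e-09) and -3.89 ± 0.30 in embryo (adjusted p = 1.22e-11). Between 16 and 24 h its embryo mean differed by 0.51 ± 0.30, which did not pass (adjusted p = 0.521). The 2 other probe sets mapped to LIP9 lay at 2.10 to 2.81 on all arrays, at the floor of the scale, and none of their 24 h differences was called.

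EMP1 encodes an Em protein, a group 1 LEA protein typical of the dry cereal embryo, and its promoter is a textbook target of the bZIP factor TRAB1. EMP1 (Entrez gene 4338499) read 9.78, 10.43 and 9.98 in endosperm at 24 h, against 13.49, 13.46 and 13.46 at 0 h, and 9.62, 8.74 and 9.92 in embryo at 24 h, against 14.06, 14.11 and 14.02 at 0 h. Embryo arrays were the higher ones at 0, 4 and 8 h, and the tissues overlapped from 12 h on. Its 6 means were 13.47, 13.40, 12.79, 11.80, 11.19 and 10.06 in endosperm (SD 0.0149 to 0.334) and 14.06, 13.96, 13.40, 12.26, 11.59 and 9.43 in embryo (SD 0.0265 to 0.648). The fall over 24 h was -3.40 ± 0.26 in endosperm (adjusted p = 5.01e-11) and -4.64 ± 0.26 in embryo (adjusted p = 2.45e-14). A large share of the embryo fall came in the last interval, -2.17 ± 0.26 between 16 and 24 h (adjusted p = 1.53e-06).

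LEA19, a group 3 LEA gene, moved least. Its probe set has a name that ends in _s_at, the suffix Affymetrix gives to probe sets that can match more than 1 transcript. Endosperm arrays of LEA19 (Entrez gene 4339480) had 12.47, 12.65 and 12.58 at 24 h, against 13.08, 12.96 and 13.02 at 0 h. Embryo arrays had 11.85, 11.09 and 11.96 at 24 h, against 13.44, 13.20 and 13.37 at 0 h. In both tissues the 2 times did not overlap, but the endosperm gap was small. Endosperm means were 13.02, 12.98, 12.74, 12.72, 12.66 and 12.57 (SD 0.0257 to 0.156) and embryo means 13.34, 13.31, 13.10, 12.61, 12.25 and 11.63 (SD 0.0131 to 0.474). The endosperm difference of -0.45 ± 0.14 (adjusted p = 0.0119) was below the fold threshold, and the embryo signal fell, at -1.71 ± 0.14 (adjusted p = 3.7e-11).

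PM19L encodes a small AWPM-19-like membrane protein; genes of this family are known in cereals as induced by ABA and are not LEA proteins. Endosperm arrays of PM19L (Entrez gene 4338635) had 10.70, 10.99 and 10.63 at 24 h, against 13.17, 13.17 and 13.01 at 0 h, and embryo arrays had 10.24, 8.51 and 10.40 at 24 h, against 13.74, 13.37 and 13.36 at 0 h. Embryo replicate 4 was far below the other 2 embryo arrays at 24 h. Across the times the means were 13.12, 12.70, 12.09, 11.60, 11.48 and 10.77 in endosperm (SD 0.041 to 0.189) and 13.49, 13.18, 12.66, 11.54, 10.78 and 9.72 in embryo (SD 0.0853 to 1.05). PM19L fell in both tissues, with a 24 h difference of -2.35 ± 0.31 in endosperm (adjusted p = 7.08e-07) and -3.77 ± 0.31 in embryo (adjusted p = 5.15e-11). A dimmer probe set of PM19L gave -2.04 ± 0.34 and -3.11 ± 0.34 in endosperm and embryo, and its embryo signals reached 2.62 to 2.63 at 24 h, the floor of the scale, so its embryo fall cannot be measured in full.

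The start of the decline came within the first 12 h in both tissues for most members. In embryo the number called lower than at 0 h was 1 at 4 h (RAB16D, background 4.24% of all probe sets), 4 at 8 h (7.1%), 8 at 12 h (8.32%) and 9 at 16 h (9.08%). In endosperm it was 0 at 4 h (0.261%), with 0 members at an unadjusted p below 0.05 in limma, then 4 at 8 h (2.52%), 6 at 12 h (3.7%) and 7 at 16 h (3.86%). The 4 embryo genes at 8 h were LIP9, RAB16C, RAB16D and rab25, and the 4 endosperm genes were LIP9, PM19L, RAB16C and RAB16D. The endosperm count at 8 h was 2 without replicate 2 of 0 h or without replicate 3 of 8 h, each time without PM19L and RAB16C. Among the members called in both tissues rab25 had the longest gap, called from 8 h in embryo and from 16 h in endosperm. RAB21 and LEA19, called from 12 h and 16 h in embryo, were not called in endosperm by 24 h.

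Between neighbouring times the embryo calls of a fall numbered 4 from 4 to 8 h (3.38% of all probe sets), 7 from 8 to 12 h (1.64%), 0 from 12 to 16 h (0.0594%) and 6 from 16 to 24 h (0.631%). For endosperm the numbers were 2 from 4 to 8 h (0.906%), 3 from 8 to 12 h (0.757%), 0 from 12 to 16 h (0.0%) and 4 from 16 to 24 h (0.191%). At the 12 to 16 h step limma put 2 members in endosperm and 7 in embryo below an unadjusted p of 0.05, all of them downward. The steepest interval per hour was 8 to 12 h for 6 endosperm courses, with the other 3 (LEA19, PM19L, RAB16D) steepest from 4 to 8 h, and 8 to 12 h for 8 embryo courses, with LIP9 steepest from 4 to 8 h. RAB16C lost 0.327 log2 units per hour in endosperm and 0.620 per hour in embryo over its steepest interval.

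As a measure of timing, the hour at which the mean lay 1 log2 unit below its 0 h value was read by straight lines between sampled times, with the range of the hours read from the arrays of 1 replicate number alone. No test was made on these hours, and the numbers do not pair the arrays. rab25 reached that point at 13.3 h (range 11.4 to 14.8 h) in endosperm and at 6.24 h (range 6.22 to 6.26 h) in embryo. LIP9 did so at 7.18 h (range 6.71 to 7.43 h) in endosperm and 5.18 h (range 5.11 to 5.33 h) in embryo, RAB16D at 4.95 h (range 4.5 to 5.5 h) in endosperm and 3.34 h (range 2.4 to 4.24 h) in embryo. In these 3 genes the endosperm was later, with ranges that do not meet. For RAB16D they came close, from 4.5 h in endosperm and up to 4.24 h in embryo. The share of all probe sets with such ranges was not computed. The narrow embryo range of rab25 overstates the precision, since leaving out single arrays gave 5.94 to 6.58 h there, against 12.6 to 15.0 h in endosperm.

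RAB16B came down by 1 unit at 9.96 h (range 9.12 to 11 h) in endosperm and 8.24 h (range 7.47 to 9.52 h) in embryo, and RAB16C at 7.01 h (range 6.33 to 8.39 h) in endosperm and 6.1 h (range 5.46 to 7.38 h) in embryo, and in both genes the ranges overlap. For EMP1 the hours were 9.3 h (range 8.95 to 10 h) in endosperm and 9.2 h (range 8.63 to 10.8 h) in embryo, ranges that overlap. PM19L was the one gene with the earlier hour in endosperm, 7.85 h (range 7.66 to 8.04 h), against 8.62 h (range 7.09 to 11.5 h) in embryo, and these ranges overlap. RAB21 and LEA19 did not reach a drop of 1 unit in endosperm within 24 h, against 9.68 h (range 8.96 to 11 h) and 15.1 h (range 12.3 to 16.4 h) in embryo. The hour was later in endosperm for 8 of 9 members as deposited, EMP1 among them by 0.1 h, and for 8 after 75th percentile centring. It was later for 7 after centring on the spike-in controls, where EMP1 joined PM19L. After quantile normalization it was later for 9, and rab25 did not reach the drop in endosperm. With the mean of the probe sets of a gene it was also later for 9, and the hours of LIP9 were then 13.4 h in endosperm and 9.53 h in embryo and that of PM19L in embryo 4.81 h. These means take in the 2 floor probe sets of LIP9 and the dimmer probe set of PM19L. A 1 unit drop of such a mean is not that of the brightest probe set. The share of all probe sets with a later hour in endosperm was not computed under any setting.

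**Figure D3:**
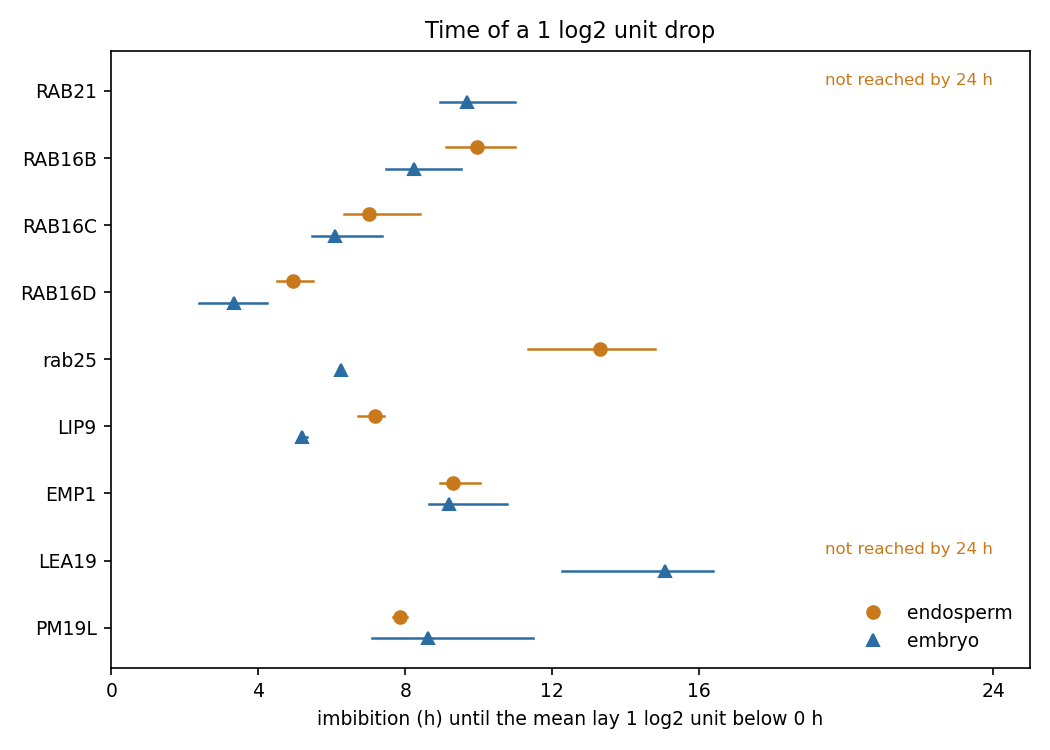
Hours of imbibition (horizontal axis) until the mean signal lay 1 log2 unit below its 0 h value, endosperm as circles above embryo as triangles, with bars for the range of the hours read from the arrays of 1 replicate number alone. The bars of rab25, LIP9 and RAB16D do not meet. The share of all probe sets with such bars was not computed. Among genes that reached the drop in both tissues, rab25 has the widest separation, at 13.3 h in endosperm and 6.24 h in embryo. RAB21 and LEA19 did not reach it in endosperm by 24 h. Leaving out single arrays gave 5.94 to 6.58 h for rab25 in embryo, wider than its bar.

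Whether the decline differed between the tissues was tested as the change since 0 h in endosperm minus the change since 0 h in embryo. A constant offset between the tissues cancels in this difference, but an offset that varies with the signal level does not. Array medians lay at 2.72 to 2.93 over both tissues while the 75th percentiles differed, so the tissues did not differ by a constant alone. The endosperm lost less signal than the embryo for 7 of 9 members by 24 h, with a median of 1.43, against a median of 0.02 over all probe sets, of which 7.69% were called higher and 7.69% lower. None of the 9 was called lower, and 0 had an unadjusted p below 0.05 in that direction in limma. rab25 stood at 5.36 ± 0.49 (adjusted p = 1.84e-09), RAB16C at 2.80 ± 0.61 (0.000681) and RAB16B at 2.09 ± 0.41 (0.000238). In these 3 dehydrins, and in RAB21, LEA19 and PM19L, all 3 endosperm arrays lay above all 3 embryo arrays at 24 h as deposited. LIP9 had the reverse order, and EMP1 and RAB16D overlapped. The share of all probe sets with such an order was not computed.

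RAB21 differed by 1.95 ± 0.20 (adjusted p = 1.04e-08), and its other probe set by 1.63 ± 0.26. PM19L differed by 1.43 ± 0.44 (0.0142), LEA19 by 1.25 ± 0.20 (1.12e-05) and EMP1 by 1.23 ± 0.37 (0.0118). LIP9 at 0.70 ± 0.42 (0.267) and RAB16D at 0.49 ± 0.49 (0.552) did not pass the test.

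Array 4 of the 24 h embryo group had the lowest signal of its group in all 9 members. Without it the count fell to 4 of 9, as EMP1 (0.89, adjusted p = 0.0562), LEA19 (0.98) and PM19L (0.83) lost the call, while RAB16B, RAB16C, RAB21 and rab25 stayed called when any 1 of the 36 arrays was left out. Array 2 of the 24 h endosperm group had the highest signal of its group in 8 of 9 members. Among the earlier embryo groups, array 5 was the highest in 9 of 9 members at 8 h and at 12 h and in 8 of 9 at 16 h, and array 1 the lowest in 8 of 9 at 12 h. Harvest days differ between arrays, and with the harvest day as a block the count was again 7. Within the 2 harvest days that held endosperm arrays of both times, 1 array each, the 24 h minus 0 h values of rab25 were -1.30 and -1.06 and those of RAB21 -0.57 and -0.58. No harvest day held embryo arrays of both times. The arrays numbered 1, which share harvest days between tissues, gave 5.28 for rab25, 2.66 for RAB16C, 1.99 for RAB21, 1.81 for RAB16B, 1.02 for PM19L, 0.97 for LEA19, 0.73 for EMP1, 0.07 for LIP9 and -0.36 for RAB16D, without a test.

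Calls of a difference between the courses began at 12 h. The difference of the changes was called for 0 of 9 members at 4 h (background 1.78% called higher), where 0 had an unadjusted p below 0.05 in limma. At 8 h it was called for 0 (3.67%), where 3 had one. These were rab25 at 1.29 ± 0.49, RAB21 at 0.52 ± 0.20 and LIP9, which changed by -1.22 in endosperm and -2.27 in embryo. In rab25 and RAB21 all 3 endosperm arrays already lay above all 3 embryo arrays at 8 h as deposited. RAB16B overlapped at that time, and the other members had the reverse order. The share of all probe sets with either order was not computed. It was called for 4 at 12 h (5.15%), namely LIP9 at 1.19 ± 0.42, RAB16B at 1.42 ± 0.41, RAB21 at 1.05 ± 0.20 and rab25 at 3.04 ± 0.49. At 16 h it was called for 4 (5.97%), with RAB16C at 2.27 ± 0.61 in place of LIP9 at 1.11 ± 0.42. EMP1 stood at 0.19 ± 0.37 at 16 h and passed at 24 h alone. The count at 12 h rested on single arrays: it was 6 without embryo replicate 5 of 12 h, where RAB16C (2.30) and RAB16D (1.63) were called as well, 2 without embryo replicate 1 and 1 (rab25) without embryo replicate 4 of that time. LIP9 lost its 12 h call when any 1 of the 0 h arrays was left out (adjusted p = 0.0513 to 0.096). It was also lost without some arrays outside the comparison, such as embryo replicate 4 of 4 h (adjusted p = 0.0502), so this call is borderline. The 4 calls at 16 h held when any 1 array was left out, and rab25 was called at 8 h without embryo replicate 5 of 12 h or without embryo replicate 4 or 5 of 24 h.

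**Figure D4:**
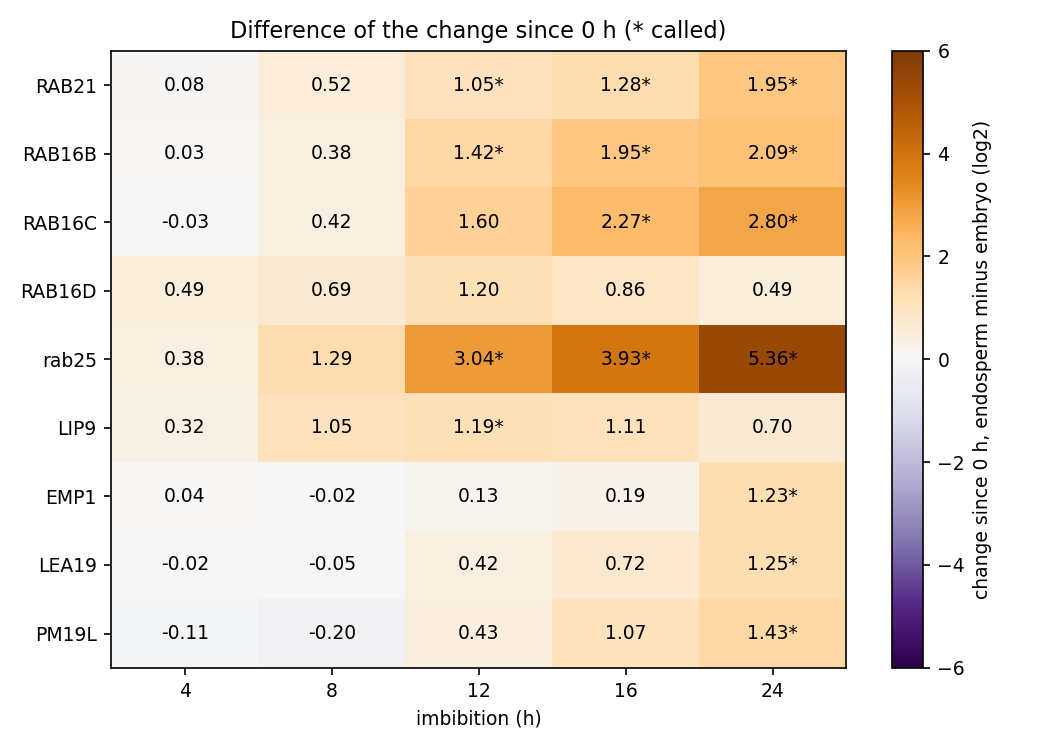
Change since 0 h in endosperm minus that in embryo (log2, colour and printed value) for each gene at 4, 8, 12, 16 and 24 h, with an asterisk where it was called. Values of rab25 grow to 5.36 at 24 h, and no gene is called at 4 or 8 h.

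Levels were also compared between the tissues at each time. At 0 h, 3 of 9 members were lower in endosperm than in embryo (LIP9 at -3.19 ± 0.30, RAB16D at -1.32 ± 0.35 and RAB16C at -1.16 ± 0.43), against 23.2% of all probe sets, and 0 were higher, against 2.37%, with 0 at an unadjusted p below 0.05 in limma. At 24 h only LIP9 was lower (-2.49 ± 0.30, adjusted p = 3.47e-08; background 22.5%), and 5 were higher (2.98%). These were rab25 at 4.98 ± 0.34 (adjusted p = 8.61e-13), RAB21 at 1.86 ± 0.14 (3.71e-12), RAB16C at 1.65 ± 0.43, RAB16B at 1.57 ± 0.29 and PM19L at 1.06 ± 0.31.

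At the times between, the number lower in endosperm was 2 at 4 h (LIP9 and RAB16C, background 23.8%), 1 at 8 h (23.5%), 1 at 12 h (23.4%) and 1 at 16 h (23.3%), each time LIP9. The number higher in endosperm was 0 at 4 h (1.71%), 0 at 8 h (2.22%), 1 at 12 h (rab25, 2.53%) and 4 at 16 h (2.89%), where RAB16B, RAB16C and RAB21 joined rab25. In limma 0 members at 4 h and 2 at 8 h were higher at an unadjusted p below 0.05. As deposited, RAB16C was called lower in endosperm at 0 h and higher at 24 h, but its 0 h value was 0.011 (adjusted p = 0.982) after 75th percentile centring and -0.79 (adjusted p = 0.14) after quantile normalization, so the 0 h call depends on the scaling.

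These levels depend on how the 2 tissues are scaled. With each array centred on its 75th percentile the median over all probe sets at 0 h was 1.10, against -0.07 as deposited, 3114 probe sets were called lower and 33259 higher in endosperm, against 13281 lower and 1357 higher as deposited, and 7 members turned positive at 0 h. At 24 h rab25, RAB21, RAB16B and RAB16C were higher in endosperm and LIP9 lower as deposited and under each of the 3 other scalings, while RAB16D changed sign. After 75th percentile centring 35780 of all probe sets were called higher at 24 h and the median was 1.19. A positive sign under that scaling is therefore that of most probe sets. Higher calls numbered 4063 after quantile normalization and 1466 after spike-in centring. PM19L at 24 h was not called without embryo replicate 4 (0.45) or without endosperm replicate 2 (0.95), and RAB16C at 0 h not without endosperm replicate 2 (-1.11).

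**Figure D5:**
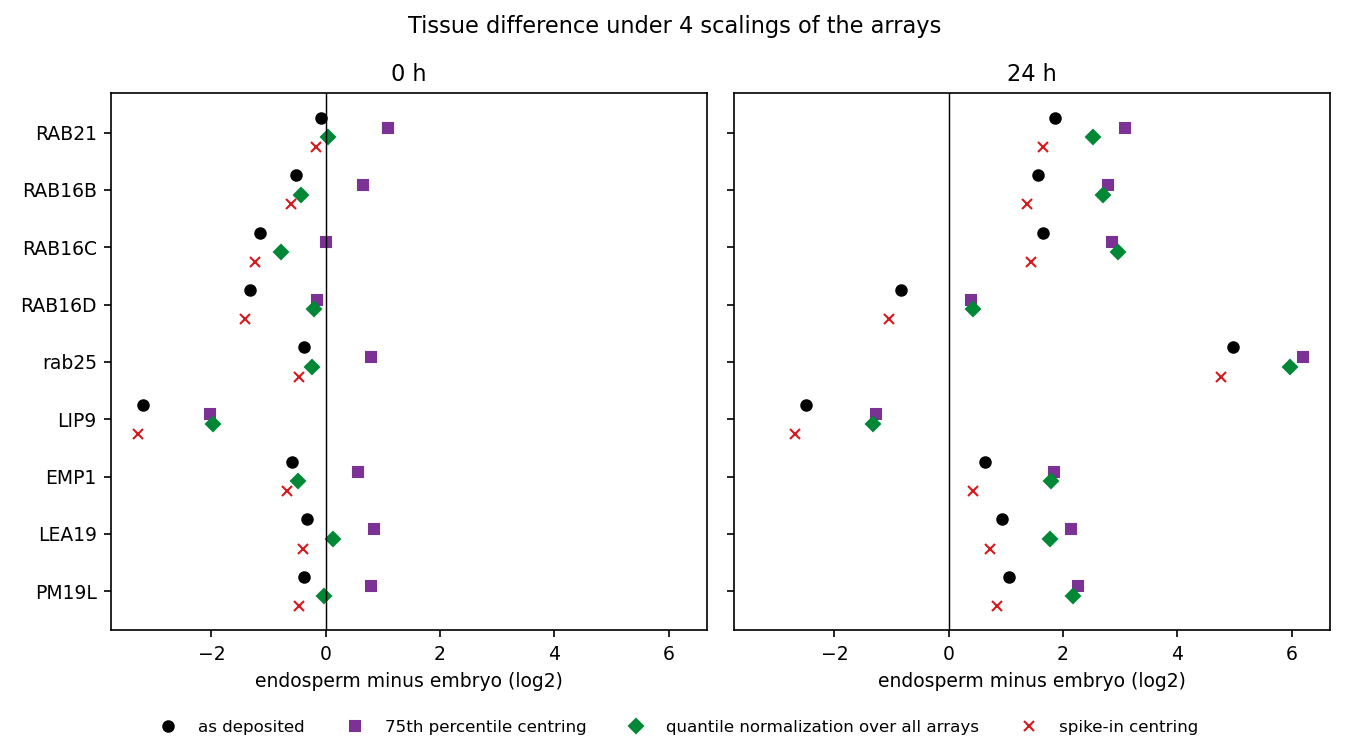
Endosperm minus embryo (log2, horizontal axis) for the 9 genes at 0 h (left panel) and 24 h (right panel), with 1 symbol for each of 4 scalings of the arrays. At 24 h rab25, RAB21, RAB16B and RAB16C lie right of 0 and LIP9 left of 0 under all 4, while at 0 h most signs depend on the scaling. After 75th percentile centring the median over all probe sets at 24 h was itself 1.19.

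Courses of the members were more alike within a tissue than over both. Over the 6 endosperm means the 36 pairs of members correlated at 0.904 or higher with a median of 0.965, and over the 6 embryo means at 0.794 or higher with a median of 0.980. Over all 12 means the lowest pair was at 0.279 and the median at 0.892. These figures describe courses that share their arrays. Among 2449 other named genes, the profiles most like the mean of the 9 standardised courses over the 12 group means were those of HSP26.7, a small heat shock protein (Pearson r = 0.983), SSRP1-B (0.981), Lpa1 (0.978), OsUGE-1 (0.976) and ADPRT-3 (0.976). HSP26.7 averaged 7.0 at 24 h and 12.52 at 0 h in endosperm, and 5.56 at 24 h and 13.51 at 0 h in embryo. The genes most like RAB21 were gRASC8 (0.991), the small heat shock gene HSP16.9A (0.980) and the peroxiredoxin gene R1C-Prx (0.977), and those most like EMP1 were Hox22, a homeodomain factor (0.987), HSP18.6 (0.955) and OsPEX11-1 (0.950).

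Regulators of the ABA and dehydration response were read from a list of 22 symbols, of which 8 genes were measured. In endosperm 3 of 8 were lower (4.57% of all probe sets) and 1 higher (7.33%) at 24 h than at 0 h, with a median of -0.08, and in embryo 6 were lower (10.1%) and 1 higher (12.0%), with a median of -1.33. The median over all probe sets was -0.03 in endosperm and -0.05 in embryo. VP1, the seed maturation factor of the B3 class, was at 0.53 ± 0.15 in endosperm and fell in embryo, at -1.32 ± 0.15 (adjusted p = 4.02e-08). TRAB1, which binds ABA-response elements, was at 0.02 ± 0.08 in endosperm and fell in embryo, at -1.25 ± 0.08 (adjusted p = 1.61e-13). For both, the difference between the tissues passed the test, at 1.85 ± 0.22 for VP1 (adjusted p = 1.66e-07) and 1.26 ± 0.11 for TRAB1 (8.06e-10).

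The bZIP gene BZIP23 fell in both tissues, at -1.63 ± 0.14 in endosperm and -1.35 ± 0.14 in embryo, and so did the dehydration-response factors DREB2A (-1.63 ± 0.20 and -2.86 ± 0.20 in the same order) and DREB2B (-1.15 ± 0.11 and -1.51 ± 0.11). DREB1B, of the cold-response branch, rose by 3.19 ± 0.58 in endosperm and by 3.52 ± 0.58 in embryo. DREB1A was at 0.46 ± 0.40 in endosperm and fell in embryo, at -1.58 ± 0.40, and DREB1C was called in neither tissue. In all, the change differed between tissues for 4 of 8 (VP1, TRAB1, DREB1A and DREB2A), each higher in endosperm, against 7.69% of all probe sets. Of 6 measured genes for other proteins of the dry seed, from a list of 15 symbols, 4 fell in endosperm (4.57% of all probe sets) and 5 in embryo (10.1%), and 5 had a change that was higher in endosperm (7.69%).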

How the data were processed

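Transcript signals of 36 Affymetrix rice arrays were used, in 12 groups of tissue and time with 3 arrays each, assigned to groups by their labelled tissue and time. The deposited values are log2 signals; per the submitters' processing notes the authors used GCRMA. GCRMA leaves a floor, so a change of a low signal is understated, and the 2 tissues appear to have been normalised apart. The values were used as deposited. The 123 Affymetrix control and 64 reporter probe sets were left out, which left 57194 rice probe sets, of which 22436 mapped to 1 gene, 95 to several and 34663 to none in the array annotation and in the RefSeq gene table of assembly ASM3414082v1, used for names and gene order alone.

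A mean for each group was fitted with limma 3.58.1 in R 4.3.3 over all 36 arrays, with empirical Bayes moderation and Benjamini-Hochberg adjustment over all probe sets. A call needed an adjusted p below 0.05 and an absolute log2 difference of at least 1. Adjusted p-values and standard errors in the text come from this fit. The fit was tested on simulated data. The number of arrays limits the precision. All 9 members are named, and the genes of likeness are those with the highest Pearson correlation over the 12 group means. The members, lists, tests and markers were chosen with earlier results of these data known. A search of gene symbols for other LEA genes gave 1 gene, not analysed here. Sequences were not used here. Counts and plots used Python 3.11.15 with pandas 2.3.3, matplotlib 3.10.9 and numpy 2.4.6.

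Replicate numbers were checked for pairing within each tissue: correlations of the deviations from group means between arrays of the same number were above 0.1 in only part of the pairs, so the numbers were not taken to pair the arrays. The alternatives tried were blocks for replicate number and for harvest day, trended and robust moderation, bright probe sets alone, 3 other scalings of the arrays, the arrays compared alone, averaging the probe sets of each gene, no minimum fold, replicate 1 alone and each array left out in turn. The hour of a 1 log2 unit drop was read by linear interpolation of group means and recomputed under the scalings, the probe set means and left-out arrays. The endosperm values within harvest days, and the counts at 4 to 16 h with each array left out, were added after seeing the data.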

Additional observations from a re-analysis of the deposited data

Results flagged for a closer look

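A total of 15 differences between the tissues in the change since 0 h passed the test of the difference itself, all higher in endosperm. At 12 h they were 1.19 for LIP9 (a call lost when any 1 of the 0 h arrays was left out), 1.42 for RAB16B, 1.05 for RAB21 and 3.04 for rab25. At 16 h they were 1.95 for RAB16B, 2.27 for RAB16C, 1.28 for RAB21 and 3.93 for rab25. By 24 h the values were 1.23 for EMP1, 1.25 for LEA19, 1.43 for PM19L, 2.09 for RAB16B, 2.80 for RAB16C, 1.95 for RAB21 and 5.36 for rab25. Groups of 3 arrays are too small for a test of single outlying arrays.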

How the results depend on the processing

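The 9 calls of a fall in embryo held under all alternatives. In endosperm 7 members fell, except after quantile normalization, where rab25 at -0.96 missed the fold, and with no minimum fold, where LEA19 and RAB21 passed as well and made 9. RAB16B, RAB16C, RAB21 and rab25 kept their 24 h difference of changes under all 46 alternatives fitted. EMP1 (1.11) and LEA19 (1.13) lost that call after spike-in centring, and PM19L (1.43, adjusted p = 0.144) when only the arrays compared were fitted. The replicate block changed no call of a member and left the counts at 9, 7 and 7; it could not be fitted for levels between tissues, whose numbers are nested in tissue. With replicate 1 alone the difference for RAB16D was -0.36, without a test. Leaving out each array gave 9 to 9 members lower in embryo, 7 to 7 lower in endosperm, 4 to 7 with a different change, 2 to 3 lower and 0 to 0 higher in endosperm than in embryo at 0 h, and 1 to 2 lower and 4 to 6 higher at 24 h. Lower than at 0 h were 0 to 1 at 4 h, 4 to 5 at 8 h, 8 to 8 at 12 h and 9 to 9 at 16 h in embryo and 0 to 0, 2 to 4, 6 to 6 and 7 to 7 in endosperm at those times, and the change differed for 0 to 0, 0 to 1, 1 to 6 and 4 to 6 members at them. Of the hours of a 1 unit drop under other settings, 34 moved by more than the SD between replicate numbers and 45 did not.

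For levels between tissues at 0 h, 75th percentile centring gave 1 member higher and 1 lower in endosperm. Of all 57194 probe sets, 33259 were higher and 3114 lower under that scaling. Quantile normalization gave 1 member lower (3705 of all probe sets), and no minimum fold gave 5 lower (24061 of all probe sets). At 24 h, 2 members were lower after spike-in centring (14926 of all 57194 probe sets) and 2 with no minimum fold (22674). The count was 0 (11204 lower calls in all) when the probe sets of each gene were averaged, which adds the floor probe sets of LIP9. At 0 h the sign turned after 75th percentile centring for EMP1 (0.57), LEA19 (0.85), PM19L (0.79), RAB16B (0.65), RAB16C (0.011), RAB21 (1.08) and rab25 (0.79), and after quantile normalization for LEA19 (0.13) and RAB21 (0.032). At 24 h RAB16D became 0.38 and 0.42 under these 2 scalings. The cause was not tested.

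Over all probe sets, spike-in centring gave 4072 lower and 2533 higher in the difference of 24 h changes, against 4397 and 4400 as deposited, and moved the median to -0.11. After 75th percentile centring the 24 h changes were 4268 lower and 2941 higher in endosperm and 7960 lower and 5418 higher in embryo, against 2612 and 4194 in endosperm and 5778 and 6875 in embryo as deposited. Spike-in centring gave 1891 lower and 5500 higher in endosperm and 4324 lower and 8564 higher in embryo. Quantile normalization gave 3705 lower and 3205 higher in endosperm than in embryo at 0 h. With no minimum fold the lower calls numbered 13219 in endosperm and 28117 in embryo.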
